A study of Mus musculus with 4 samples.

Results

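The mitochondrial carrier family Slc25 comprised 47 of the 22063 genes listed, taken as every gene whose symbol is Slc25a followed by a number. All 47 were found by their identifier in GENCODE vM21 (GRCm38), and 37 had enough counts to be tested. RNA-sequencing was made from 4 libraries of TKPTS cells (TKPT in the labels), a mouse renal proximal tubular epithelial line, and addressed what silencing *Itgb6*, the integrin β6 subunit gene, changes in injured tubular cells. Scrambled replicates 2 and 3 received control siRNA (si-NC) and Itgb6-siRNA replicates 1 and 3 received siRNA against *Itgb6* (si-*Itgb6*). Both groups were kept for 24 h at 1% O2 and then for 12 h in normal oxygen, so no library of untreated cells was compared here, and every library came from this 1 cell line.

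Slc25 proteins exchange metabolites, nucleotides, cofactors, phosphate and iron across the inner mitochondrial membrane, which is otherwise closed to them. They are built from repeated pairs of membrane-spanning helices, are encoded in the nucleus and are imported through the TOM complex and, for most, the TIM22 complex. In the proximal tubule, a segment rich in mitochondria, they link oxidation of fuels in the matrix to ATP used for transport in the cytosol.

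Libraries held 15435074 to 17220281 counts, and the members took 0.264% to 0.274% of them. *Itgb6* itself had 285 and 284 counts in Scrambled replicates 2 and 3 and 279 and 260 counts in Itgb6-siRNA replicates 1 and 3. The groups overlapped for this gene (log2 fold change −0.0051, SE 0.13, edgeR adjusted p = 0.991), so its RNA was not lower under the label and the groups are named here only as labelled. The study reports lower integrin αvβ6 protein by western blot in hypoxic TKPTS cells given si-*Itgb6*, which is another measure than the RNA of these libraries. Its methods state that silencing was also checked by qPCR, which measures RNA. The *Itgb6* counts of these libraries show no such fall, and the reason was not tested. Of 9 proximal tubule markers, *Slc34a1*, *Slc5a2*, *Slc22a6* and *Slc22a8* had 0 counts in every library and *Hnf4a* had 0 or 1. The others were present, *Aqp1* at 387 to 633 counts per library, *Cubn* at 30 to 45, *Ggt1* at 15 to 21 and *Lrp2* at 2 to 17. The epithelial markers *Krt8*, *Krt18*, *Cdh1*, *Epcam*, *Cdh16* and *Pax8* each had 2106 counts or more in every library. The markers did not stand still between groups: *Aqp1* was 0.59 higher on the log2 scale in the libraries labelled Itgb6-siRNA (edgeR adjusted p = 0.000617), *Havcr1* 0.19 higher (edgeR adjusted p = 0.0358) and *Krt8* lower, at −0.20 (edgeR adjusted p = 0.00881). Itgb6-siRNA replicate 1 held traces absent from most libraries, with 22 counts of *Col1a1*, 11 of *Col1a2* and 11 of *Lyz2* against 0 to 2 elsewhere. Of markers of other cell types, 2 of 6 leukocyte genes (*Cd68* and *Csf1r*), 1 of 5 fibroblast genes and 1 of 4 endothelial genes had enough counts to be tested, and 0 were called by edgeR, with 1 (*Cd68*) at an unadjusted edgeR p under 0.05. DESeq2 called 0 of the leukocyte genes and gave no adjusted p to the fibroblast and endothelial genes. The summed level of the leukocyte list was 92.65 and 100.03 FPKM in Scrambled and 93.20 and 84.46 FPKM in Itgb6-siRNA, mostly from *Cd68*, while *Ptprc* and *Adgre1* had 0 to 6 counts. The part of these differences in the carrier results was not tested. In bulk RNA, a change in the make-up of the cells and a change of RNA per cell cannot be told apart.

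Promoter sequence is shown for 1 member that was lower, 1 that was higher and the most highly expressed carrier. The RefSeq table (GRCm38.p6) had windows for 36 of the 47 members, 46 windows in all, and the 250 bases before the start were searched on both strands. Capitals mark CCAAT (the CCAAT box), ACGTG (the core bound by hypoxia-inducible factors) and GGGCGG, or its complement CCGCCC (the GC box bound by Sp1 and its relatives). *Slc25a30* lies on the minus strand and its window is chr14:75787038-75787287. *Slc25a5* lies on the plus strand with the window chrX:36795347-36795596. Neither window contains an annotated exon. The *Slc25a11* stretch of 30 bases is chr11:70647100-70647129 on the minus strand, from 90 to 61 bases before the start, by the RefSeq start, chosen because it holds both motifs found in that window and no exon. GENCODE places the start of *Slc25a11* further upstream, at 70647479, so by that annotation the stretch lies inside the gene, between exons. For *Slc25a5* the GENCODE gene begins at 36795651, downstream of the RefSeq start, and for *Slc25a30* both annotations give the same start.
Slc25a30: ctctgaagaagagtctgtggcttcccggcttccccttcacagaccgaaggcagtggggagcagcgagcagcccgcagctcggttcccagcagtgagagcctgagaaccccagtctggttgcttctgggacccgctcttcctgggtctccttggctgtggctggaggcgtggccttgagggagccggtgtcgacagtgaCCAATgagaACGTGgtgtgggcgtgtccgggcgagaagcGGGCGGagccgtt
Slc25a5: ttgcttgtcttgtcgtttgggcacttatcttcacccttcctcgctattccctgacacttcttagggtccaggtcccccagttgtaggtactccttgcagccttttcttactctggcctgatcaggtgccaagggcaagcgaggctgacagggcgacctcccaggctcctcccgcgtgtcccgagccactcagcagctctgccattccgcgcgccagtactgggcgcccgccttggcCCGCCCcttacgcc
Slc25a11: ccgcgattCCAATtccggagGGGCGGgaat

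In *Slc25a30* the CCAAT box began 52 bases, the ACGTG core 43 bases and the GC box 13 bases before the start, whereas *Slc25a5* had the GC box alone, on the opposite strand at 14 bases. The GC box was found in 77.8% of the 36 windows of tested members and in 59.0% of the windows of all genes tested (32.7% of all windows in the table). Those 36 windows came from 28 tested members, so these are shares of windows and not of genes. CCAAT was in 47.2% of the tested members' windows, against 35.8% for genes tested and 33.8% overall. ACGTG was in 27.8%, against 21.9% and 16.6%. For motifs tied to mitochondrial genes, CGCATGCG (the NRF1 core) was in 0% of the tested members' windows, against 3.20% and 1.55%, and CCGGAAGT (bound by GABP) was in 2.78%, against 6.03% and 2.88%. AAGGTCA (bound by ERR receptors) was in 0%, against 2.62% and 4.08%. These are matches of letters in short windows, with no binding measured.

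Levels were compared between genes as FPKM, the count per length and depth that was deposited. Expression within the family was very uneven. Mean FPKM was over 100 for 4 members, 10 to 100 for 13, 1 to 10 for 17 and above 0 but under 1 for 9, and 4 members had no count. The adenine nucleotide translocase *Slc25a5*, which exchanges cytosolic ADP for matrix ATP, was the highest at 465 and 473 FPKM in Scrambled and 431 and 430 FPKM in Itgb6-siRNA. The phosphate carrier *Slc25a3*, which brings in the phosphate that ATP synthase uses, followed at 339, 354, 351 and 360 FPKM in the same order of libraries. These 2 genes made up 52.7% to 54.6% of the family's FPKM. The citrate carrier *Slc25a1* had 112 to 126 FPKM, the translocase *Slc25a4* 98.6 to 109 FPKM, the glutathione carrier *Slc25a39* 79.7 to 95.3 FPKM and the oxoglutarate/malate carrier *Slc25a11* 42.5 to 56.0 FPKM. None of these 6 overlapped its neighbour in the order over the 4 libraries, but *Slc25a11* overlapped the next member, *Slc25a37* (40.8 to 50.8 FPKM). Together the 6 held 76.5% to 78.5% of the family's FPKM.

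**Figure D1:**
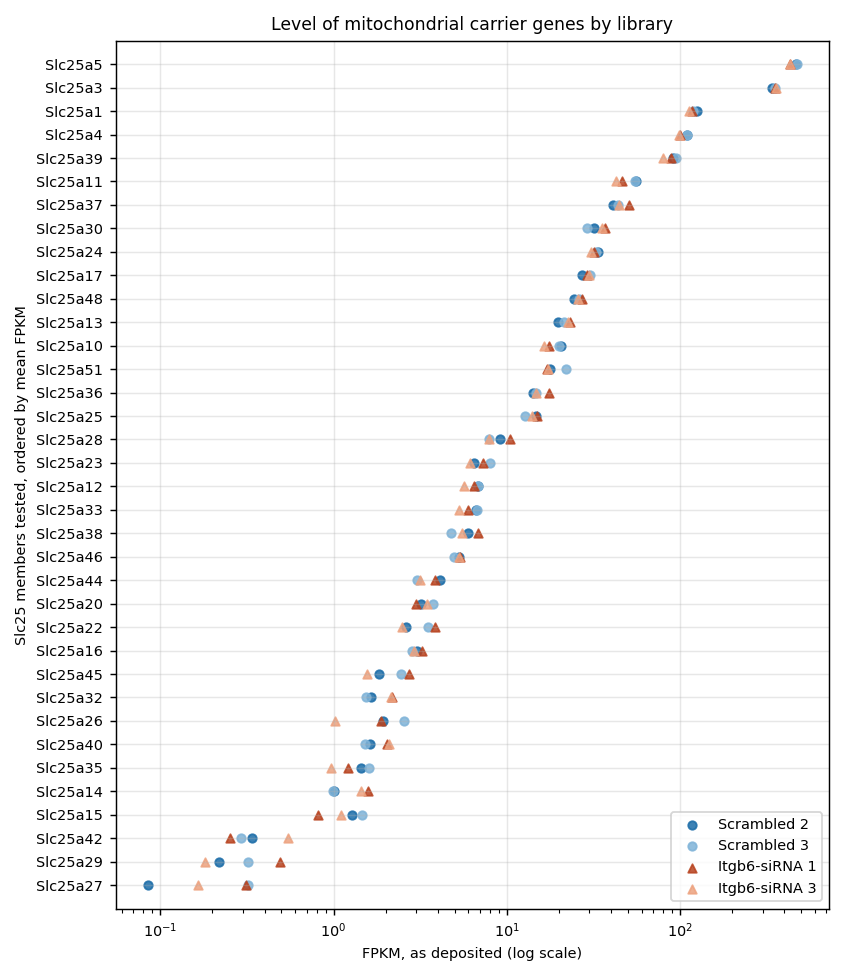
FPKM as deposited (log scale) of 36 tested Slc25 members, ordered by mean FPKM, with 1 point per library (circles Scrambled, triangles Itgb6-siRNA). The highest member, Slc25a5, has a mean of 450 FPKM and the lowest, Slc25a27, 0.221 FPKM, and for most members the 4 points lie close together.

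Related genes were expressed unequally. *Slc25a5* exceeded *Slc25a4* by 4.25 to 4.36 times (FPKM ratio in each library), the steadiest of the 8 ratios computed. Of the mitochondrial iron importers, *Slc25a37* (mitoferrin-1) exceeded *Slc25a28* (mitoferrin-2) by 4.46 to 5.65 times. Of the aspartate/glutamate carriers of the malate-aspartate shuttle, *Slc25a13* (citrin) exceeded *Slc25a12* (aralar) by 2.92 to 3.99 times. *Slc25a39* exceeded its paralog *Slc25a40* by 38.0 to 62.6 times. Among the calcium-regulated ATP-Mg/phosphate carriers, *Slc25a24* exceeded *Slc25a23* by 4.10 to 5.17 times and *Slc25a25* by 2.14 to 2.56 times. Of the pyrimidine nucleotide carriers, *Slc25a36* exceeded *Slc25a33* by 2.13 to 2.94 times. Of the glutamate carriers, *Slc25a22* had 2.50 to 3.87 FPKM and *Slc25a18* only 0 to 2 counts per library. Between the groups, 5 of the 8 ratios did not overlap (*Slc25a13* over *Slc25a12*, *Slc25a39* over *Slc25a40*, *Slc25a24* over *Slc25a25*, *Slc25a36* over *Slc25a33* and *Slc25a5* over *Slc25a3*), and no ratio was tested. For single genes, the groups did not overlap by normalized counts in 49.2% of all genes tested, and no such share was computed for ratios. The ratios also rest on FPKM, whose scale against counts varied between libraries, by 1.24 times for *Slc25a40*.

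Between the groups, few carriers differed. With edgeR's quasi-likelihood test and Benjamini-Hochberg adjustment over all 11727 genes tested, 3 of the 37 tested members passed an adjusted p of 0.05 (8.11%), against 4.62% of all genes tested. *Slc25a11* was lower in the libraries labelled Itgb6-siRNA (background for lower genes 2.52%), and *Slc25a30* and *Slc25a37* were higher (background 2.11%). All 3 were among the 12 members with a mean over 1000 counts, a depth at which 9.21% of all genes were called. By the thresholds of the study, an unadjusted p under 0.05 with a fold change over 1.2, 2 members were lower, *Slc25a11* and *Slc25a26*, and 0 were higher (5.41% of the tested members, against 9.57% of all genes, 5.20% lower and 4.37% higher). DESeq2 gave 1 lower and 0 higher member by the same thresholds, and an adjusted p to 16 of the 37 members only. An unadjusted edgeR p under 0.05 was reached by 8 of 37 members (21.6%) and by 18.4% of all genes. The log2 fold changes ran from −0.77 to 0.60 with a median of 0.06, 14 negative and 23 positive, beside a median of 0.00017 over all genes tested. Without Itgb6-siRNA replicate 1 the members' median turned to −0.038. CPM, the counts scaled to a common library size with TMM factors, did not overlap between groups in 19 tested members (51.4%), against 49.2% of all genes. Of these, 10 were lower (background 25.4%) and 9 higher (background 23.8%). Apart from the share called at an adjusted p under 0.05, these shares lay near or below those of all genes.

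**Figure D2:**
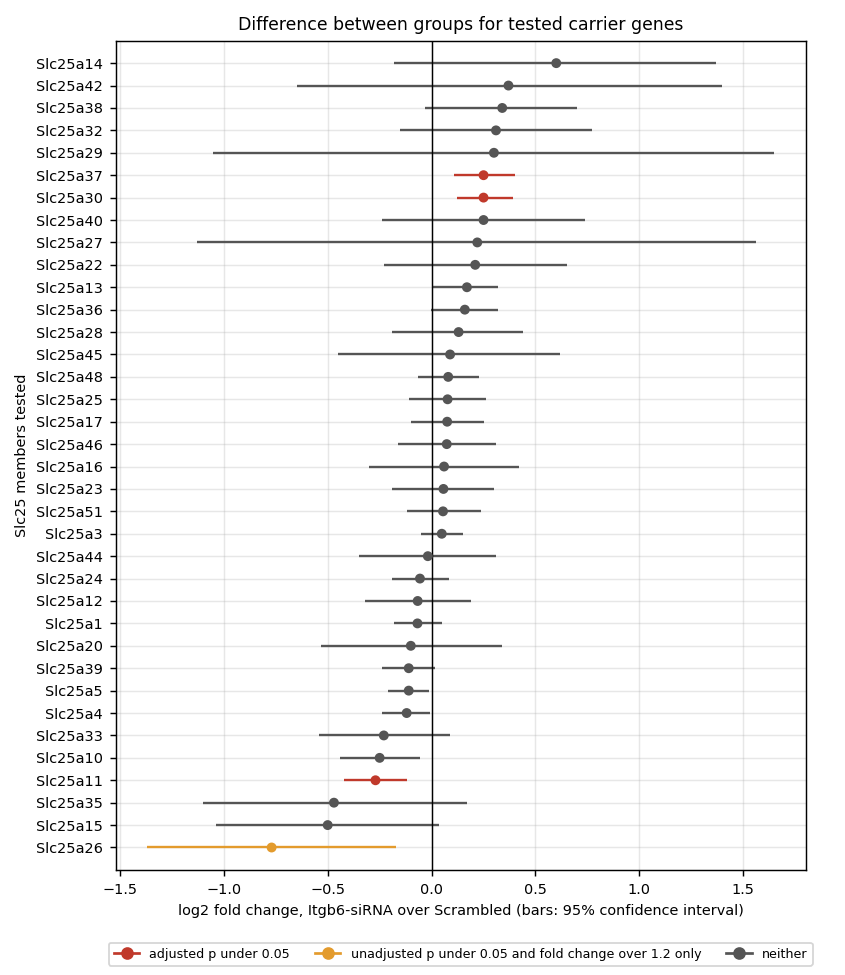
log2 fold change (Itgb6-siRNA over Scrambled) of 36 tested Slc25 members with their 95% confidence intervals from edgeR's fit, n = 2 libraries per group. Red marks the 3 members past an adjusted p of 0.05, orange Slc25a26, past the study's thresholds only, and the widest intervals belong to members with few counts.

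*Slc25a11* exchanges oxoglutarate for malate and is the inner-membrane partner of the aspartate/glutamate carriers in the malate-aspartate shuttle. It lies on chromosome 11 from 70644196 to 70647479 on the minus strand (ENSMUSG00000014606). It had 1465 and 1549 counts in Scrambled replicates 2 and 3 and 1184 and 1196 counts in Itgb6-siRNA replicates 1 and 3. Both Itgb6-siRNA libraries were below both Scrambled libraries, as in 25.4% of all genes tested. The mean fell from 89.7 ± 0.104 CPM to 74.5 ± 2.72 CPM (SD, n = 2 per group), a log2 fold change of −0.27 (SE 0.073, 95% interval −0.42 to −0.12, edgeR adjusted p = 0.0271). Its exons overlap those of *Rnf167* on the opposite strand, whose reads cannot be told apart without strand. *Rnf167* had 329 to 388 counts per library and a log2 fold change of −0.067 (SE 0.12, edgeR adjusted p = 0.814). The call for *Slc25a11* was lost once trends on GC content and length were removed (−0.22, edgeR adjusted p = 0.100), and without Scrambled replicate 2 (adjusted p = 0.354), Scrambled replicate 3 (adjusted p = 0.178) or Itgb6-siRNA replicate 3 (adjusted p = 0.130).

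The role group of di- and tricarboxylate carriers holds 4 genes, of which 3 were tested. *Slc25a10* and *Slc25a1* had both Itgb6-siRNA libraries below both Scrambled libraries, as 25.4% of all genes tested did, without passing the adjusted test. The dicarboxylate carrier *Slc25a10*, which exchanges malate and succinate for phosphate, had 40.7 ± 0.727 CPM in Scrambled and 34.4 ± 1.19 CPM in Itgb6-siRNA. Its log2 fold change was −0.25 (SE 0.094, unadjusted p under 0.05, edgeR adjusted p = 0.134). *Slc25a1*, which exports citrate for fatty acid and sterol synthesis, had 3357 and 3422 counts in Scrambled and 3039 and 3114 counts in Itgb6-siRNA. That difference was −0.068 (SE 0.057, 95% interval −0.18 to 0.049), and its direction turned to 0.04 when GC and length trends were removed. *Slc25a21*, the oxodicarboxylate carrier, had 0 counts in every library.

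*Slc25a30* (kidney mitochondrial carrier protein) belongs to the branch of the family closest to the uncoupling proteins. It lies on chromosome 14 from 75760117 to 75787037 on the minus strand (ENSMUSG00000022003) and shares no exon with another gene. It had 1738 and 1799 counts in Scrambled and 1898 and 2116 counts in Itgb6-siRNA. Both Itgb6-siRNA libraries were above both Scrambled libraries, as in 23.8% of all genes tested. The mean rose from 105 ± 1.71 CPM to 126 ± 4.17 CPM (SD, n = 2), or 0.25 on the log2 scale (SE 0.066, 95% interval 0.12 to 0.39, edgeR adjusted p = 0.0198). The rise of 19.2% is under the study's fold change threshold. This call too was lost with GC and length trends removed (0.23, edgeR adjusted p = 0.0567), and without Scrambled replicate 2 (adjusted p = 0.318), Scrambled replicate 3 (adjusted p = 0.191) or Itgb6-siRNA replicate 3 (adjusted p = 0.0878). The related *Slc25a14* had 26 and 26 counts in Scrambled and 37 and 38 counts in Itgb6-siRNA, a log2 difference of 0.60 whose 95% interval ran from −0.18 to 1.37, and *Slc25a27* had 4 to 16 counts with overlapping groups.

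*Slc25a37* imports iron for heme and iron-sulfur clusters. It lies on chromosome 14 from 69241848 to 69285112 on the minus strand (ENSMUSG00000034248). It had 2105 and 2601 counts in Scrambled and 2767 and 2553 counts in Itgb6-siRNA. In CPM these were 129, 151, 179 and 155, so the groups were separated only by the gap between Scrambled replicate 3 and Itgb6-siRNA replicate 3. The mean rose from 140 ± 15.2 CPM to 167 ± 16.7 CPM (SD, n = 2), or 0.25 on the log2 scale (SE 0.071, 95% interval 0.11 to 0.40, edgeR adjusted p = 0.0325), a rise of 19.3%. Its exons overlap *Gm27223* and *Gm31748* on the opposite strand, and no library held a whole number for it. Why its estimated counts held fractions was not tested. The call was lost under DESeq2 (adjusted p = 0.0674), under scaling by library size alone (edgeR adjusted p = 0.0712), with GC and length trends removed (edgeR adjusted p = 0.0643), and without Scrambled replicate 2 (0.15, adjusted p = 0.649), Scrambled replicate 3 (0.37, adjusted p = 0.0527) or Itgb6-siRNA replicate 1 (0.15, adjusted p = 0.220). The other iron carrier, *Slc25a28*, had 204 and 194 counts in Scrambled and 222 and 191 counts in Itgb6-siRNA, and its groups overlapped (0.13, 95% interval −0.19 to 0.44). *Slc25a3*, of the same role group, differed by 0.049 (95% interval −0.05 to 0.15), with 542 and 569 CPM in Scrambled and 563 and 587 CPM in Itgb6-siRNA. Of this group of 3, DESeq2 gave 2 an adjusted p and called 0.

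**Figure D3:**
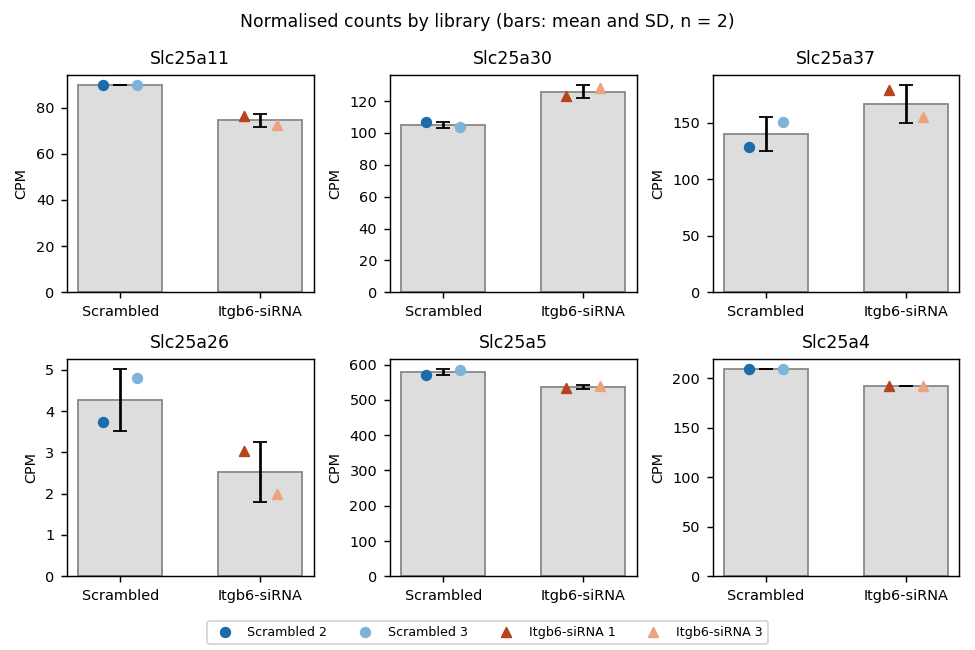
CPM of 6 Slc25 members in each library, with bars for the group mean and error bars for the SD (n = 2), each panel starting at 0. For Slc25a11, Slc25a26, Slc25a5 and Slc25a4 both Itgb6-siRNA points lie below both Scrambled points, and for Slc25a30 and Slc25a37 both lie above. Groups did not overlap in 49.2% of all genes tested.

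The adenine nucleotide translocases *Slc25a5* and *Slc25a4* were both slightly below Scrambled without passing the adjusted test, and a further translocase, *Slc25a31*, had 0 counts. *Slc25a5* had 9339 and 10110 counts in Scrambled and 8258 and 8905 counts in Itgb6-siRNA. *Slc25a4* had 3411 and 3609 counts in Scrambled and 2973 and 3168 counts in Itgb6-siRNA. After scaling, Scrambled and Itgb6-siRNA did not overlap for either gene, and 25.4% of all genes tested were likewise lower without overlap. *Slc25a5* was at 579 ± 8.97 CPM against 537 ± 5.21 CPM, a log2 fold change of −0.11 (SE 0.048, unadjusted p under 0.05, edgeR adjusted p = 0.211). *Slc25a4* was at 209 ± 0.143 CPM against 192 ± 0.247 CPM, a log2 fold change of −0.12 (SE 0.056, unadjusted p under 0.05, edgeR adjusted p = 0.240). As a share of the family's FPKM, these 2 translocases took 38.0% and 37.9% in Scrambled and 35.8% and 36.6% in Itgb6-siRNA. The ATP-Mg/phosphate carriers *Slc25a23*, *Slc25a24* and *Slc25a25*, which adjust the adenine nucleotide content of the matrix, had log2 fold changes of 0.057, −0.056 and 0.077, all with overlapping groups. The peroxisomal cofactor carrier *Slc25a17* was at 0.075. In this role group of 8 genes, 6 were tested and 0 were called by edgeR or DESeq2 (adjusted p given to 5). An unadjusted edgeR p under 0.05 was reached by 2 of them (33.3%), against 18.4% of all genes. *Slc25a31* and *Slc25a41* had 0 counts.

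Of the 9 amino acid carriers 7 were tested and 0 were called by edgeR or by DESeq2, which gave an adjusted p to 1 of them. An unadjusted edgeR p under 0.05 was reached by 1 (14.3%, against 18.4% of all genes), *Slc25a13*. It had 991 and 1142 counts in Scrambled and 1105 and 1169 counts in Itgb6-siRNA, which were 60.7 and 66.1 CPM against 71.4 and 71.0 CPM. The difference was 0.17 (95% interval 0.0079 to 0.32, edgeR adjusted p = 0.244). *Slc25a12*, the related gene for the same exchange, had 310 and 337 counts in Scrambled and 300 and 287 counts in Itgb6-siRNA. Its log2 fold change was −0.067, with overlapping groups. The ornithine carrier *Slc25a15* (−0.50, 95% interval −1.04 to 0.036) and the glycine carrier *Slc25a38* (0.34, 95% interval −0.034 to 0.70) had groups that did not overlap but passed no threshold. Such separation was seen in 25.4% of all genes tested for lower genes and 23.8% for higher genes. The glutamate carrier *Slc25a22* (0.21), the basic amino acid carrier *Slc25a29* (0.30) and the branched-chain amino acid carrier *Slc25a44* (−0.018) had overlapping groups.

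All 11 cofactor, nucleotide, carnitine and glutathione carriers were tested. At an adjusted p under 0.05, 0 were called by edgeR or by DESeq2, which gave an adjusted p to 3 of them. An unadjusted edgeR p under 0.05 was reached by 1 (9.09%, against 18.4% of all genes). This was *Slc25a26*, which supplies S-adenosylmethionine for methylation inside mitochondria. It had 61 and 83 counts in Scrambled and 47 and 33 counts in Itgb6-siRNA, or 4.27 ± 0.753 CPM against 2.52 ± 0.729 CPM (SD, n = 2). Both Itgb6-siRNA libraries were lower, as in 25.4% of all genes tested. The log2 fold change was −0.77 (SE 0.29, 95% interval −1.37 to −0.17, edgeR adjusted p = 0.136). DESeq2 gave it −0.76 with an SE of 0.41, no adjusted p and no call by the study's thresholds. That call was also lost without Scrambled replicate 3 (−0.57) or Itgb6-siRNA replicate 3 (−0.49). Its exons overlap those of *Lrig1* on the opposite strand, which had more counts (918 to 1091 per library) and a log2 fold change of −0.027. *Slc25a39* was at 143 ± 5.47 CPM in Scrambled and 132 ± 6.49 CPM in Itgb6-siRNA. Its log2 fold change of −0.11 (95% interval −0.24 to 0.016) became 0.0011 with GC and length trends removed, while its paralog *Slc25a40* was at 0.25 (95% interval −0.24 to 0.74). The pyrimidine nucleotide carriers differed in sign, *Slc25a33* at −0.23 (95% interval −0.54 to 0.09) and *Slc25a36* at 0.16 (95% interval −0.0045 to 0.32), and the difference between them was not tested. The carriers of coenzyme A (*Slc25a16* and *Slc25a42*), folate (*Slc25a32*), NAD (*Slc25a51*) and acylcarnitines (*Slc25a20*) had log2 fold changes from −0.10 to 0.37, all with overlapping groups.

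Among the remaining members, 4 of 9 were tested and 0 were called by edgeR or by DESeq2, which gave an adjusted p to 1 of them, with 0 at an unadjusted edgeR p under 0.05. *Slc25a48* was the most abundant of them, with 1340 to 1517 counts per library and a log2 fold change of 0.08. *Slc25a46*, an outer membrane protein that takes part in mitochondrial fission and lipid traffic, was at 0.073, *Slc25a45* at 0.089 and *Slc25a35* at −0.47 (95% interval −1.10 to 0.17). Not tested for low counts were *Slc25a2*, *Slc25a18*, *Slc25a34*, *Slc25a43*, *Slc25a47* and *Slc25a53*, each with 0 to 15 counts per library. *Slc25a21*, *Slc25a31*, *Slc25a41* and *Slc25a54* had 0 counts in all 4 libraries, which allows a level of up to 0.174 to 0.194 CPM per library (3 counts, counting error only).

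**Figure D4:**
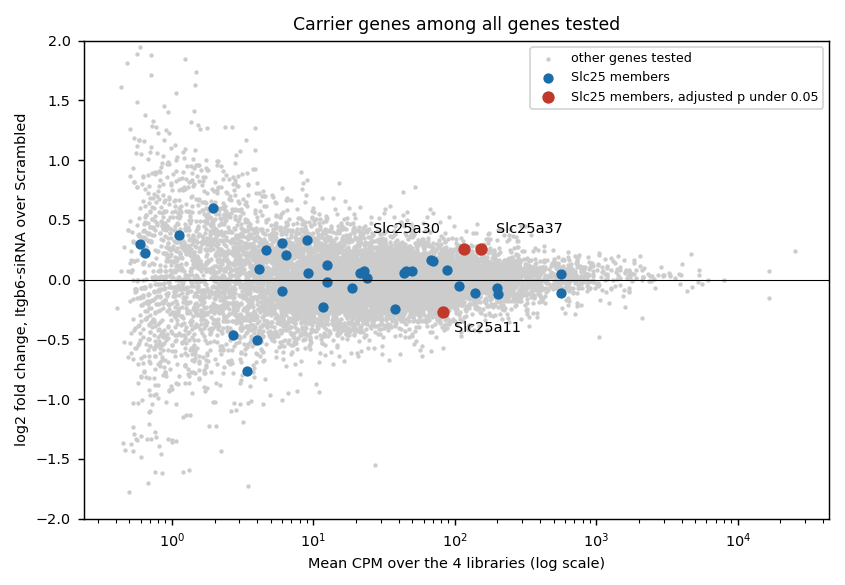
log2 fold change (Itgb6-siRNA over Scrambled) against mean CPM over the 4 libraries (log scale) for all 11727 genes tested (grey), with the 37 tested Slc25 members in blue and the 3 past an adjusted p of 0.05 in red. The members lie within the cloud of other genes at their level, and 12 genes lie outside the vertical range of −2 to 2.

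Genes that act beside the carriers had no call at an adjusted p under 0.05. Of 5 carrier family genes with other symbols (*Ucp1*, *Ucp2*, *Ucp3*, *Mtch1* and *Mtch2*), 3 were tested and 0 called by edgeR or DESeq2 (adjusted p given to 3), with 1 at an unadjusted edgeR p under 0.05 and a median difference of −0.022 (log2). In the TOM and TIM22 import pathway, 13 of 13 genes were tested and 0 called at an adjusted p under 0.05 by edgeR or by DESeq2, which gave an adjusted p to 7 of them, 4 had an unadjusted edgeR p under 0.05 and the median was 0.00015. By the study's thresholds 2 of these were lower, the small chaperone gene *Timm10b* (−0.38, edgeR adjusted p = 0.0622) and *Agk*, a lipid kinase that is also a TIM22 subunit (−0.60, edgeR adjusted p = 0.134). These are 15.4% and 30.8% of the list by the study's thresholds and by the unadjusted p, beside 9.57% and 18.4% of all genes. Of 25 other mitochondrial membrane transporters, such as the pyruvate carrier, the porins and the calcium uniporter, 24 were tested and 0 called by edgeR or DESeq2 (adjusted p given to 12), with 0 at an unadjusted edgeR p under 0.05 and a median of −0.01. Of 15 partner enzymes of the malate-aspartate shuttle, citrate and folate metabolism, 15 were tested and 0 called by edgeR or DESeq2 (adjusted p given to 14). An unadjusted edgeR p under 0.05 was reached by 4 (26.7%, against 18.4% of all genes), and the median was 0.034.

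The size of a difference that could be called depended on depth. The SE of the log2 fold change was 0.048 to 0.08 for the 12 members with a mean over 1000 counts, 0.085 to 0.21 for the 14 with 100 to 1000 counts and 0.21 to 0.66 for the 11 below 100 counts, of which 3, 0 and 0 were called. Base composition moved with the comparison: across the 11709 genes with a known GC content, the log2 fold change had a Spearman rho of −0.364 with GC, and across the 37 members of −0.180 (a description, since all genes share the same 4 libraries). After removal of GC and length trends, 1.87% of all genes and 0 members were called by edgeR at an adjusted p under 0.05. The 3 called members kept their direction in every setting tried, but no setting that dropped a Scrambled library kept a call.

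**Figure D5:**
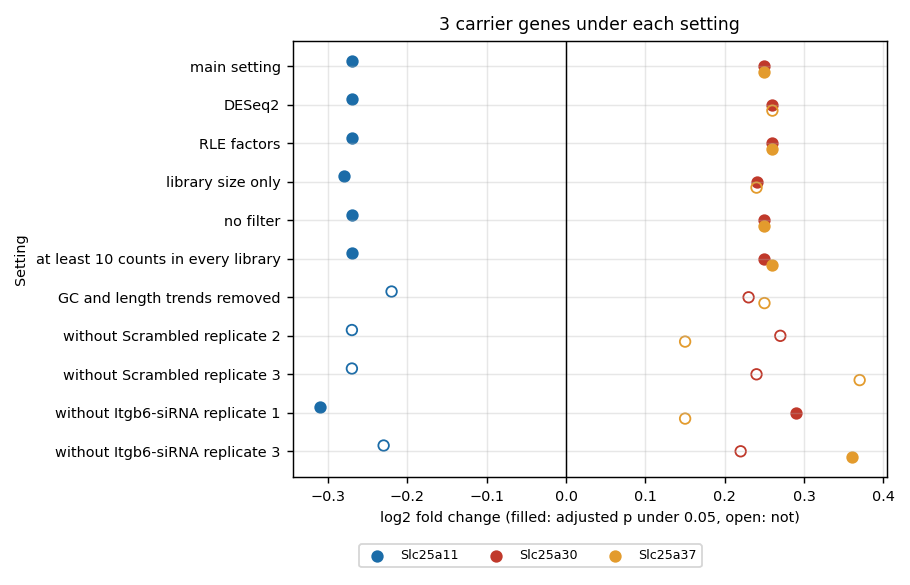
log2 fold change (Itgb6-siRNA over Scrambled) of the 3 called members under the main setting and 10 alternatives, filled where the adjusted p was under 0.05 and open where it was not. Slc25a11 stays between −0.31 and −0.22, Slc25a30 between 0.22 and 0.29 and Slc25a37 between 0.15 and 0.37, and all 3 points are open with GC and length trends removed and without either Scrambled replicate.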

How the data were processed

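Polyadenylated RNA of 4 libraries was sequenced in pairs without strand information. The authors deposited estimated counts per gene, which were raw values with fractions in 1447 to 1500 genes per library, and FPKM values made by the authors, which were used for levels and in no test. The aligner, counting tool, genome build and annotation are not given in the sources used here, and the study states that samples were optimized after clustering. The study gives 2 replicates per group and describes its experiments in general as biologically independent. The labels do not say that these libraries came from separate cultures, so the spread behind the p-values may be technical. In addition, edgeR draws the variance of each gene towards a trend over all genes, so a p-value does not measure that gene's own spread alone. *Slc25a37*, with SDs of 15.2 and 16.7 CPM, had an SE of 0.071. *Slc25a11*, with SDs of 0.104 and 2.72 CPM, had an SE of 0.073. The members and lists were chosen with earlier results of these data known.

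Estimated counts were rounded. Genes were kept with filterByExpr (minimum count 10, minimum total 15), normalized with TMM factors and compared in edgeR 4.0.16 (R 4.3.3) by its quasi-likelihood test, with Benjamini-Hochberg adjustment over all genes tested. The script was tested on simulated data. SE is the log2 fold change over the square root of F, and intervals are at the 95% level. Alternatives were DESeq2 1.42.0, RLE factors, library size only, no filter, at least 10 counts in every library, lowess offsets for GC content and length, and leaving out each library. Exons, GC and length came from GENCODE vM21, which may not be the authors' annotation. Exons of 14 members overlapped another gene, 12 of them on the opposite strand. Members chosen to be named are those past a threshold, the 6 highest by FPKM and closely related pairs, and not all of them are given with counts in every library. Others are given by role, and among these *Slc25a10* and *Slc25a14* were singled out after their values were seen. Values of 1 tested member are not reported here, and it is counted in the totals.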

Additional observations from a re-analysis of the deposited data

How the results depend on the processing

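The 3 called members kept their direction under DESeq2, RLE factors, library size only, no filter, a minimum of 10 counts in every library, removal of GC and length trends and without each library. The number of members lower at an adjusted p under 0.05 was 1 in the main setting and 0 with GC and length trends removed, and 0 to 1 when each library was left out. The number higher was 2 in the main setting, 1 under DESeq2, 1 with library size only and 0 with GC and length trends removed, and 0 to 1 without each library. DESeq2 gave an adjusted p to 16 of the 37 members only, and without Scrambled replicate 2 only 13 genes of any kind were called. By the study's thresholds, 2 members were lower and 0 higher. These became 3 lower with no filter, 1 lower under DESeq2, 1 lower and 1 higher with GC and length trends removed, and 1 to 3 lower and 1 to 3 higher without each library. The median log2 fold change of the tested members was 0.06 and ranged from −0.038 (without Itgb6-siRNA replicate 1) to 0.083 without each library. *Itgb6* ranged from −0.10 to 0.091, with 0.038 without Scrambled replicate 2 and 0.091 without Itgb6-siRNA replicate 3. With GC and length trends removed the direction turned for *Slc25a1* (0.04) and *Slc25a39* (0.0011). It turned without 1 library for *Slc25a12* (−0.14 to 0.011, the latter without Itgb6-siRNA replicate 3), *Slc25a22* (−0.079 to 0.46) and *Slc25a28* (−0.033 to 0.28), both negative without Itgb6-siRNA replicate 1, and *Slc25a25* (−0.027 to 0.19, negative without Scrambled replicate 3). *Slc25a26* ranged from −1.09 to −0.49. Where a library is left out, the lone library of its group is assumed to vary like the other group. The cause of these changes was not tested. No paired analysis was possible because the groups share only replicate number 3. With 2 libraries per group, changes in members under 100 counts were not detectable unless large.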

Other observations

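The deposited FPKM did not track the deposited counts equally in all libraries. The FPKM per CPM of a gene varied by over 1.2 times between libraries in 6 of the 30 members with at least 50 counts in every library, most in *Slc25a32* (1.47 times), *Slc25a22* (1.43 times) and *Slc25a51* (1.34 times), with a median of 1.04 times. *Slc25a43* had 15 counts in Scrambled replicate 2 and 2, 4 and 4 counts in the other libraries, and the ornithine carrier *Slc25a2* had 7 counts in Itgb6-siRNA replicate 3 and 1, 1 and 0 counts in the others. These members were chosen after their values were seen.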
